A study of Mus musculus with 6 samples.

Results

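The mitochondrially encoded respiratory transcripts are the messenger RNAs of the small circular genome inside mitochondria. They were taken as the rows of the count table with the symbols ND1, ND2, ND4, ND5, ND6, CYTB, COX1, COX2, COX3 and ATP6, which are 10 of its 46095 rows. RNA was sequenced from macrophages grown from the bone marrow of C57BL/6 mice at postnatal day 56. One group was wild type (WT) and the other carried Cd226-/-, the loss of the activating adhesion receptor CD226; how the allele was made is not given in the sources used here. Marrow cells of both genotypes were cultured with M-CSF (20 ng/ml, 7 days), the growth factor of macrophages, and then with IFN-γ (20 ng/ml) plus LPS (100 ng/ml) for 24 h, so every library comes from stimulated, M1-type cells. Each genotype had 3 libraries, and no label tells separate mice or cultures from repeats, so the spread behind each p-value is that of these libraries and may be technical.

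Mitochondrial DNA is transcribed from a control region into long precursor RNAs that run along whole strands and are cut into single transcripts, mostly at the tRNAs that lie between the genes. All members but ND6 come from the heavy-strand transcript, while ND6 lies on the other strand. The encoded proteins are core subunits of the respiratory chain: the ND genes belong to complex I (NADH dehydrogenase), CYTB to complex III, the COX genes to complex IV (cytochrome c oxidase) and ATP6 to complex V (ATP synthase), and each complex is completed by subunits imported from the cytosol. Macrophages activated by LPS and IFN-γ are known for shifting from respiration towards glycolysis.

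Sequence matters for reading these counts, because the nucleus holds copies of mitochondrial DNA. Each member was compared with the transcripts of the GENCODE annotation of GRCm38 that lie outside the mitochondrial genome. COX2, COX3 and ATP6 each had an annotated pseudogene of 100.0% identity over 99.6%, 99.9% and 99.6% of their length. ND4 had one over its first 876 of 1378 bases, and COX1 one of 99.8% identity over its last 483 of 1545 bases, besides another of 97.6% over its whole length. Apart from the last, these lie side by side on chromosome 1, between 24611535 and 24616197 (GRCm38), together with copies of ND3 and ND4L. For ND1, ND2, ND5, ND6 and CYTB the closest annotated copies were 83.6%, 96.7%, 95.2%, 93.6% and 92.9% identical. The middle 60 bases of 3 alignments show the contrast, with capitals where member and copy differ: COX3 (bases 362 to 421 of the gene) and its copy (chr1:24613189-24613971, minus strand) cannot be told apart, CYTB (bases 543 to 602) and its closest copy (chr4:80003989-80005131, plus strand) differ at 4 bases, and ND1 (bases 769 to 828) and its copy (chr12:59262673-59262984, plus strand) differ at 10.
COX3: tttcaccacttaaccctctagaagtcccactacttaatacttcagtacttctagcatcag
Gm28437: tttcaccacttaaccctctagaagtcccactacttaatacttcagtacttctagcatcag
CYTB: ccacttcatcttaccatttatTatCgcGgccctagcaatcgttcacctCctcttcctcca
Gm11410: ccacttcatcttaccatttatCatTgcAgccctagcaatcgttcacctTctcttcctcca
ND1: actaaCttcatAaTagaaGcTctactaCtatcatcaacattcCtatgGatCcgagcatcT
Gm48258: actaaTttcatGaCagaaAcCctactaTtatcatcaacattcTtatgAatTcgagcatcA

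Neighbouring genes can also share bases. ATP8 and ATP6, the start of a shared complex V transcript, overlap by 43 bases (MT 7927 to 7969), where the same letters are read in different frames; capitals mark the ATP6 start codon and the ATP8 stop codon.
ATP8 and ATP6: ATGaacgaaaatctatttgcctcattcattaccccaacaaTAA
ND5 and ND6 overlap by 14 bases on opposite strands (MT 13552 to 13565), and since the strand setting of the counting is not given, reads of ND6 and of antisense RNA from the heavy-strand transcript cannot be told apart.

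Levels per length covered a wide range. COX1, the catalytic core subunit of complex IV, had the highest level in WT, 3700 ± 129 CPM per kb (SD, n = 3), the count scaled to library size with edgeR's TMM correction for library composition and divided by gene length. CYTB had 558 ± 34.9, ND5 431 ± 29.4, ND1 392 ± 42.4, ND2 204 ± 22.7 and ND4 184 ± 7.86 CPM per kb (SD, n = 3). ND5 and ND1, and ND2 and ND4, were each closer to each other than their spread. The other members were far lower: COX2 had 20.3 ± 2.67, ND6 12.9 ± 5.12, COX3 7.14 ± 1.34 and ATP6 3.72 ± 0.611 CPM per kb in WT (SD, n = 3). COX2 and ND6 overlapped between libraries.

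COX2, ATP6 and COX3 follow COX1 directly on the same precursor RNA, yet their levels per length in WT were 3.72 to 20.3 CPM per kb. The 2 members covered in part by an annotated copy of at least 99% identity had 184 to 3700. The 5 members without a copy of that identity had 12.9 to 558, where ND6 was the lowest. The 3 other protein-coding rows of the mitochondrial genome, which are no members, were lower still: ND3 had 3 to 4 counts per WT library, ND4L 4 to 6 and ATP8 0 to 2. ND3 and ND4L have copies of at least 99.7% identity on chromosome 1, and no copy of ATP8 above 81.4% identity is annotated. The bases that ATP8 shares with ATP6 do lie in the copy of ATP6. That copy ends at 24614651 and the copy of COX2 starts at 24614885. Chromosome 1 between them was not searched, so a copy of ATP8 without annotation there was not looked for. Of the 7 copies on chromosome 1, only Gm10222, that of ND4L, has a row in the table, with 10 to 31 counts per library. How the counting treated reads that match several places is not given in the sources used here, and its part in these levels was not tested; the counts of COX2, COX3 and ATP6, and to a lesser degree ND4 and COX1, are therefore uncertain as measures of those transcripts. If all counts of ND4 came from its 502 bases without such a copy, its WT level would be 504 CPM per kb, and for COX1, with 1062 such bases, 5380.

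**Figure D1:**
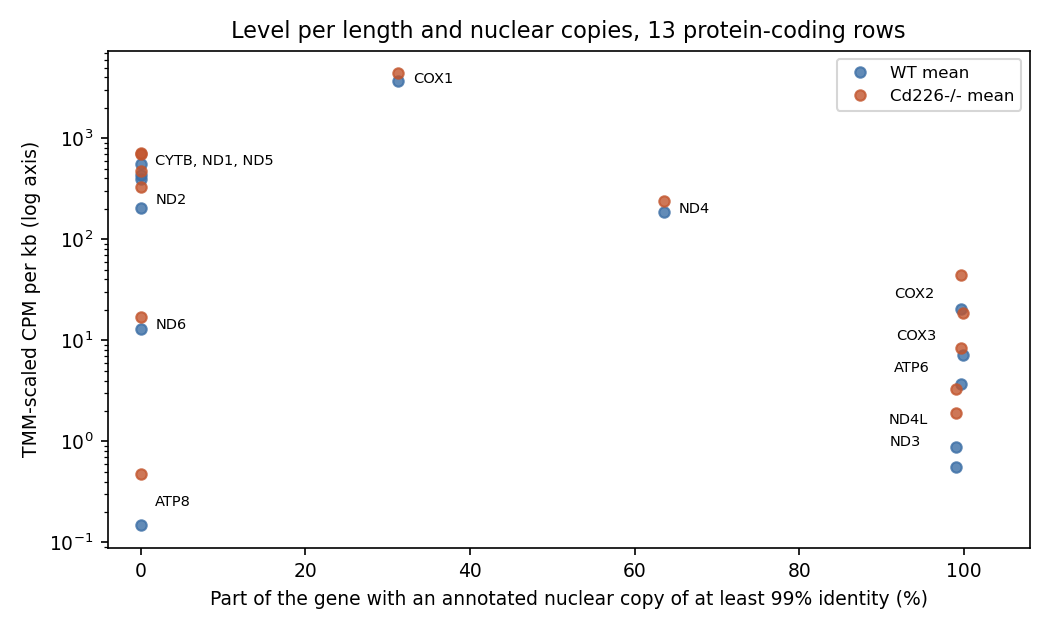
Mean level per length (TMM-scaled CPM per kb, log axis) of the 13 protein-coding rows of the mitochondrial genome in WT (blue) and Cd226-/- (orange), against the percentage of each gene covered by an annotated nuclear copy of at least 99% identity. The 5 genes covered by at least 99% lie below 50 CPM per kb, while COX1 (31.3% covered) is the highest and ATP8, for which no such copy is annotated, the lowest. Only annotated transcripts were searched, so the percentage for ATP8 may be too low.

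The table holds almost no ribosomal or transfer RNA of mitochondria. The rows named Rnr1 and Rnr2 had 0 to 6 counts together per library, and the 22 tRNA rows 9 to 29, with 13 of them at 0 throughout.

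Across the series, total counts were 16838527 to 21658061 per library, 13215 genes were tested, and 30.9% of them differed between genotypes, 16.1% higher and 14.8% lower in Cd226-/- (edgeR's quasi-likelihood test, adjusted p under 0.05). Scaled by library size alone, 13.4% were higher and 21.0% lower. The second principal component (14.9% of variance) set Cd226-/- replicate 1 apart from replicates 2 and 3. Those 2 libraries also held liver transcripts: Alb (albumin) had 266 and 279 counts there and 0 in the other 4 libraries, and 6 hepatocyte markers summed to 20.7 CPM in each, against 0.165 CPM in Cd226-/- replicate 1 and at most 0.136 in WT. Macrophage markers (8 genes, led by Lyz2) summed to 17900 to 19900 CPM in WT and 19200 to 20000 in Cd226-/-; 4 of them were higher (Adgre1, Cd68, Mertk and Fcgr1) and 3 lower (Csf1r, Itgam and Cd14). Of the 6 fibroblast markers 5 were higher in Cd226-/- (summed 497 to 577 CPM in WT, 768 to 800 in Cd226-/-), as were all 6 B-cell markers (13.2 to 17.8 and 33.3 to 43.6 CPM). Of 5 erythroid markers 4 were at 0 in all libraries. Cd226 itself had 5 to 23 counts in WT and 8 to 11 in Cd226-/-, too few to check the labels.

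The comparison asks how loss of CD226 changed these transcripts in macrophages given the same M1 stimulus. All 10 members were tested, and 5 rose in Cd226-/-: ND1, ND2, ND4, CYTB and COX1. None fell at the threshold, and the other 5 did not pass. Of all genes tested 16.1% rose, and the median log2 fold change was 0.55 for the members and -0.00 for all genes tested. With Cd226-/- replicate 1 alone the members' median was 0.21. All 10 fold changes were positive, as were 49.4% of those of all genes. The 3 Cd226-/- libraries lay above the 3 WT libraries for 6 members, which was the case for 22.1% of genes tested (22.3% lay wholly below WT). ND1, ND2, ND4, CYTB and COX1 also passed, in the same direction, in each of the 15 alternative fits, and under an adjusted p of 0.01, where 11.1% of all genes were higher. The share of all genes that were higher was 16.4% with DESeq2's size factors, 9.70% with no filter on low counts, 19.8% among genes of at least 5 CPM, 15.0% with DESeq2's Wald test, 16.1% with limma-voom and 16.5% with the replicate number as a term. It was 13.1% without WT replicate 1 or 3, 13.3% without Cd226-/- replicate 2 and 13.5% without Cd226-/- replicate 3. Summed, the 10 members took 0.782%, 0.854% and 0.811% of all counts in the WT libraries and 0.900%, 0.965% and 1.03% with Cd226-/-, so the genotypes did not overlap. The summed level was 8011 ± 356 CPM for WT against 9844 ± 519 for Cd226-/- (SD, n = 3), or 1.23-fold higher, and 1.34-fold without COX1, which made up 71.4% of the members' counts in WT. In RNA from whole cultures, a change of RNA per cell and a change in the number of cells of a type cannot be told apart.

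**Figure D2:**
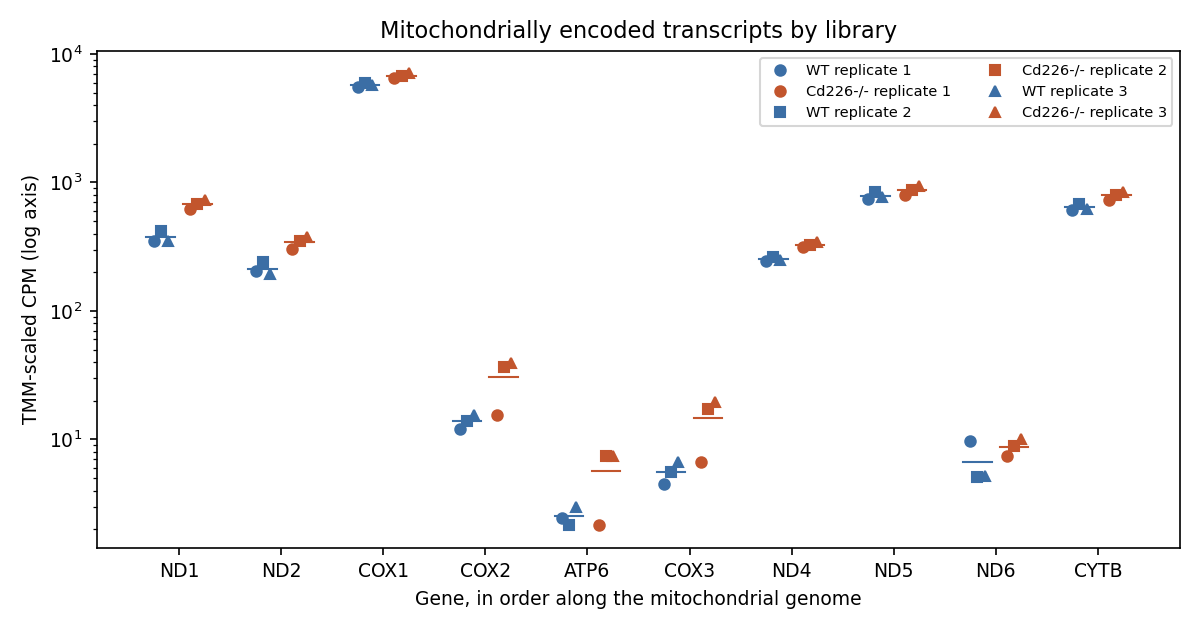
Level of each member (TMM-scaled CPM, log axis) in each of the 3 WT (blue) and 3 Cd226-/- (orange) libraries, with lines at the means, in the order of the genes along the mitochondrial genome. ND1, ND2, COX1, ND4, COX3 and CYTB do not overlap between genotypes, and in COX2, ATP6 and COX3 Cd226-/- replicate 1 lies near WT while replicates 2 and 3 lie above it.

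In complex I, ND1 (MT 2751 to 3707 of GRCm38, like the other members without introns), a membrane subunit at the quinone site and the first protein-coding gene of the heavy-strand transcript, had the smallest adjusted p of the members. It had 350, 422 and 353 CPM in the WT libraries, in the order of their replicate numbers, and 619, 686 and 736 CPM with Cd226-/-. Every Cd226-/- library was above every WT library, and the rise was 1.82-fold (log2 fold change 0.86 ± 0.08 (SE), adjusted p = 7.47e-06). Of all genes tested, 5.02% had a fold change at least as high. ND2 (MT 3914 to 4951), the next protein-coding gene and one of the proton-pumping membrane subunits, had 204, 239 and 194 CPM in WT and 303, 349 and 378 CPM in Cd226-/-. These groups did not overlap either, and ND2 rose 1.62-fold (log2 fold change 0.69 ± 0.10 (SE), adjusted p = 0.00126).

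ND4 and ND5 encode the other large pumping subunits and lie far downstream. ND4 (MT 10167 to 11544) had 246, 265 and 248 CPM in WT and 312, 325 and 346 CPM in Cd226-/-. It rose 1.30-fold without overlap (log2 fold change 0.37 ± 0.05 (SE), adjusted p = 9.94e-06). ND5 (MT 11742 to 13565), the longest member, had 742, 846 and 771 CPM in WT and 798, 867 and 943 CPM in Cd226-/-. Its groups overlapped and it did not pass (log2 fold change 0.14 ± 0.06 (SE), adjusted p = 0.0833). It passed without WT replicate 2 (adjusted p = 0.0300), without Cd226-/- replicate 1 (0.00516) and with no filter on low counts (0.0491), within a range of 0.00516 to 0.824 over all alternatives. Of all genes 13.8% were higher without WT replicate 2.

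ND6 (MT 13552 to 14070), the member on the other strand, was counted 178, 88 and 114 times in WT libraries and 136, 148 and 184 times with Cd226-/-. WT replicate 1 was as high as the Cd226-/- libraries, at 9.74 CPM against 5.14 and 5.15 in the other WT libraries. The fold change was 0.40 ± 0.23 (log2, SE), which did not pass (adjusted p = 0.222). Without WT replicate 1 it was 0.77 and passed (adjusted p = 0.00437), and over all alternatives the adjusted p ranged from 0.00437 to 0.781. Of all genes 13.1% were higher without WT replicate 1.

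For complex III, CYTB (MT 14145 to 15288) encodes cytochrome b, which carries the quinone sites of the complex, and is the last protein-coding gene of the heavy-strand transcript. It had 610, 684 and 622 CPM in WT and 736, 801 and 840 CPM in Cd226-/-, without overlap. It rose 1.24-fold (log2 fold change 0.31 ± 0.06 (SE), adjusted p = 2.38e-04).

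In complex IV, COX1 (MT 5328 to 6872), which holds the heme and copper centre that reduces oxygen, was the most abundant member and ranked 12 among all rows of the table by mean count. Its level was 5515, 5914 and 5723 CPM in WT replicates, against 6555, 6690 and 7068 CPM with Cd226-/-. The groups did not overlap, and it rose 1.18-fold (log2 fold change 0.24 ± 0.05 (SE), adjusted p = 0.00127). COX2 (MT 7013 to 7696), which takes electrons from cytochrome c, was counted 219, 240 and 346 times in WT libraries and 279, 609 and 729 times with Cd226-/-. COX3 (MT 8607 to 9390), the third core subunit, had 4.54, 5.60 and 6.64 CPM in WT and 6.72, 17.4 and 19.7 CPM in Cd226-/-. In both, Cd226-/- replicates 2 and 3 were high and replicate 1 was close to WT. Their log2 fold changes were 1.13 ± 0.43 and 1.37 ± 0.49 (SE), and did not pass (adjusted p = 0.131 and 0.108). With the same 6 libraries both passed by DESeq2's Wald test (adjusted p = 0.0287 and 0.0180) and by limma-voom (0.0131 and 0.0147).

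In complex V, ATP6 (MT 7927 to 8607), a subunit of the proton channel, showed the same arrangement at lower counts, with 45, 37 and 66 in WT and 39, 124 and 137 in Cd226-/-. Its log2 fold change was 1.15 ± 0.47 (SE) and did not pass (adjusted p = 0.116), but it did with no filter on low counts (2.15e-05). Outside the members, ND4L, another complex I gene with a full-length nuclear copy, was counted 5, 4 and 6 times in WT libraries and 11, 19 and 22 times with Cd226-/-; it passed the filter on low counts only through the Cd226-/- libraries.

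The fold changes of COX2, COX3 and ATP6 rested on Cd226-/- replicates 2 and 3, the libraries with liver transcripts. When Cd226-/- was represented by replicate 1 alone, with its spread assumed to be that of WT, the log2 fold changes were 0.15 for COX2, 0.26 for COX3 and -0.24 for ATP6 (adjusted p = 0.583, 0.502 and 0.723). Without replicate 1 they were 1.45, 1.72 and 1.54 (adjusted p = 3.06e-12, 1.22e-10 and 6.10e-07), and 9 of the 10 members passed, where 17.1% of genes were higher. The 3 members are also those with full-length nuclear copies of at least 99% identity. Alb counts and these 3 transcripts moved together over the Cd226-/- libraries, and the part of either in the result was not tested. The 5 members that rose did so with either choice of libraries: with replicate 1 alone the log2 fold changes were 0.73 for ND1, 0.52 for ND2, 0.31 for ND4, 0.21 for CYTB and 0.20 for COX1, all past the threshold (adjusted p at most 0.0146), where 11.7% of genes were higher. Fibroblast and B-cell markers were higher in all 3 Cd226-/- libraries, and their part in the rise of these 5 members was not tested.

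**Figure D3:**
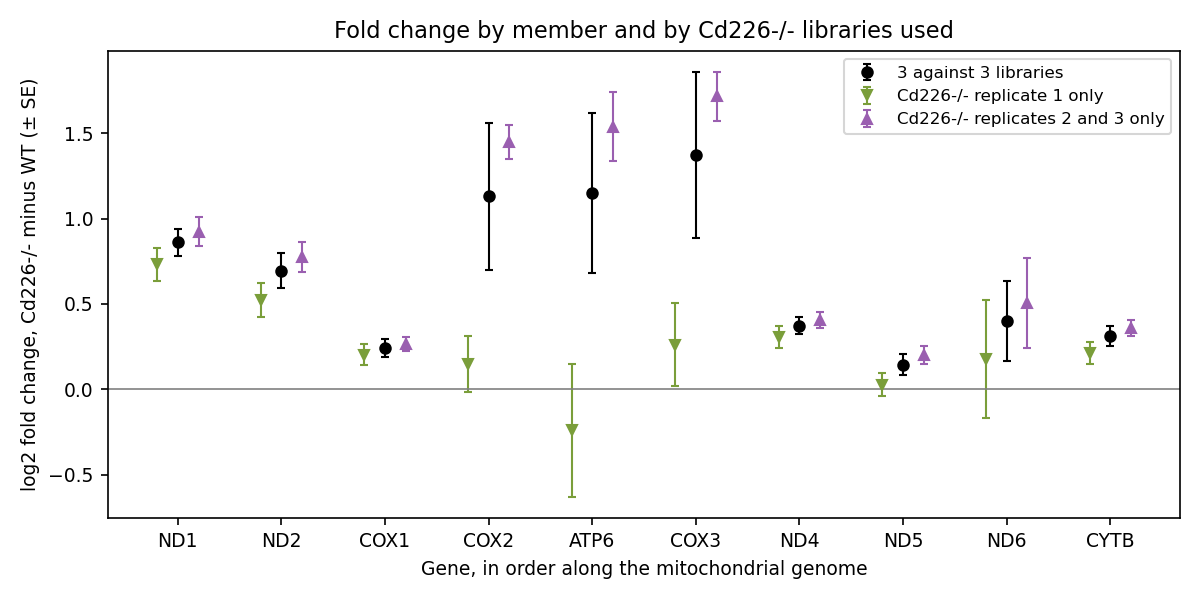
Log2 fold change of each member, Cd226-/- minus WT, with standard errors, from all 3 Cd226-/- libraries (black circles), from replicate 1 alone (green triangles) and from replicates 2 and 3 (purple triangles). The estimates for COX2, ATP6 and COX3 fall from 1.45, 1.54 and 1.72 with replicates 2 and 3 to 0.15, -0.24 and 0.26 with replicate 1, while those of ND1, ND2, COX1, ND4 and CYTB stay above 0 in each.

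The fold change differed in size from member to member. To compare them without any library scaling, each member's count was divided by the summed count of the other 9. ND1 had the largest difference among the abundant members: its log2 ratio was -4.39, -4.24 and -4.43 in WT and -3.82, -3.73 and -3.71 in Cd226-/-, a difference of 0.60. The difference was 0.41 for ND2 and 0.08 for ND4, and it was -0.17 for ND5 and -0.18 for COX1. For ND1, ND2 and ND4 all 3 Cd226-/- ratios were above the WT ratios, and for ND5 and COX1 all were below. Each of these 5 differences had p = 0.1 in a two-sided exact permutation test (adjusted p = 0.2 over the 10 members), and 0.1 is the smallest value that 3 against 3 libraries allow. By the same measure, 6.52% of all genes tested lay wholly above WT and 52.9% wholly below in a ratio whose denominator, as a TMM-scaled level, was 1.23-fold higher in Cd226-/-. The ratios of CYTB (difference 0.02), ND6 (0.16), COX2 (0.73), COX3 (0.96) and ATP6 (0.67) overlapped between genotypes. These sizes depended on the reference. Against the geometric mean of the other 9 members, which gives the low-count members equal weight, the difference was 0.26 for ND1, 0.07 for ND2, -0.54 for ND5 and -0.43 for COX1. With that reference the direction reversed for ND4 (-0.29), ND6 (-0.20) and CYTB (-0.36).

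The shift was then taken pair by pair among the 6 members with at least 1000 counts in every library. This step and its cut on counts were not planned beforehand. Of the 15 pairs of these 6, the log2 ratio of counts did not overlap between genotypes in 14, the exception being COX1 to CYTB. Over all pairs of the 3019 tested genes with as many counts, 60.2% did not overlap, and the 15 pairs share their members. The widest shift was that of ND1 to ND5, from a mean of -1.07 in WT to -0.35 in Cd226-/-, a 1.65-fold change of the ratio. The ratio of ND1 to COX1 changed 1.54-fold and that of ND1 to CYTB 1.47-fold, whereas ND4 to CYTB changed 1.04-fold. Each of the 14 had p = 0.1 in the exact permutation test (adjusted p = 0.107 over 15 pairs). Among these 6 members, ND1 and ND2 are the protein-coding genes nearest the start of the heavy-strand transcript. Their fold changes were higher than those of COX1, ND4, ND5 and CYTB further along it, at the p-values just given. The latter had log2 fold changes of 0.244, 0.373, 0.145 and 0.312, in no steady order along the transcript. COX2, ATP6 and COX3, which lie between COX1 and ND4, had the highest estimates of all members (1.13, 1.15 and 1.37) but did not pass. ND1 had the fourth level per length in WT (392 CPM per kb) and the second in Cd226-/- (711 ± 61.1 CPM per kb, SD, n = 3), where it was within the spread of CYTB (693 ± 45.9). The other members kept their order except that COX3 (18.6 ± 8.83) was above ND6 (16.9 ± 2.43) in Cd226-/-, within its spread.

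**Figure D4:**
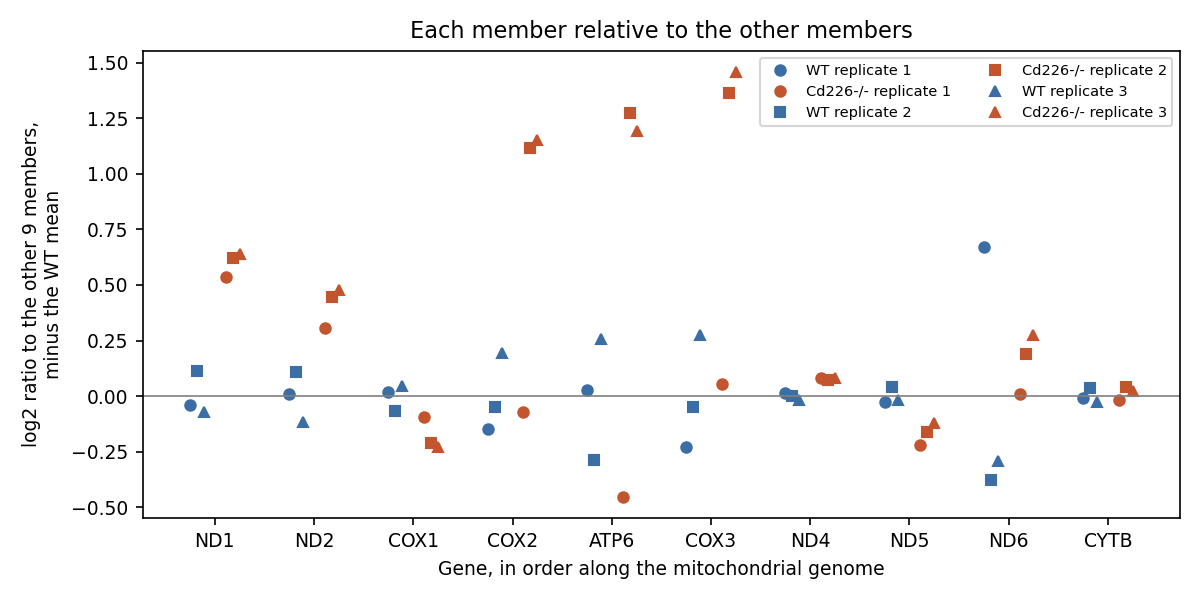
Log2 ratio of each member's count to the summed count of the other 9 members in each library, with the WT mean of that member subtracted. ND1 and ND2 of Cd226-/- lie above all WT libraries and COX1 and ND5 below, while COX2, ATP6 and COX3 are high in Cd226-/- replicates 2 and 3 only.

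Respiratory complexes also need subunits encoded in the nucleus. The counts of nuclear genes that follow are to be read against the 16.1% of all genes that rose and the 14.8% that fell. Counts with library size scaling are to be read against 13.4% and 21.0%. Of the nuclear subunits of complex I, 13 of 35 tested rose and 1 fell. In complex III 3 of 9 rose, in complex IV 8 of 13 and in complex V 7 of 17, with none falling. The number for complex III was 5 without Cd226-/- replicate 1. It was 2 with library size scaling and without WT replicate 3, Cd226-/- replicate 2 or Cd226-/- replicate 3. None of the 4 subunits of complex II, which has no mitochondrially encoded part, passed in either direction, a number too small to set against the share of all genes. There, 2 were lower with library size scaling, 1 was lower with no filter, and 1 was higher and 1 lower without Cd226-/- replicate 1. Over the 4 mixed complexes the median log2 fold change was 0.19, against 0.55 for the members, and with Cd226-/- replicate 1 alone these medians were 0.14 and 0.21. Among the nuclear genes that rose were Ndufa6 (1.29-fold), Ndufv3 (1.34-fold) and Ndufa3 (1.47-fold) of complex I, Uqcrq (1.36-fold) and Uqcrb (1.27-fold) of complex III, Cox7a2 (1.35-fold) and Cox4i1 (1.24-fold) of complex IV, and Atp5g3 (1.32-fold) and Atp5k (1.63-fold) of complex V. Over the 74 subunits 31 rose and 1 fell. Scaled by library size alone 30 rose and 3 fell, where 13.4% and 21.0% of all genes did. With replicate 1 alone for Cd226-/- these numbers were 21 and 0 (11.7% and 9.44% of all genes), and without it 34 and 2 (17.1% and 15.3%).

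Of 14 nuclear-encoded factors and regulators of mitochondrial transcription tested, none rose and 1 fell, the coactivator Pprc1 (log2 fold change -0.24 ± 0.08 (SE), adjusted p = 0.0215). It did not pass without WT replicate 2, without Cd226-/- replicate 2, without Cd226-/- replicate 3 or with replicate 1 alone for Cd226-/-. Polrmt, the mitochondrial RNA polymerase, stood at 15.3 ± 1.11 CPM in WT against 14.4 ± 1.37 with Cd226-/- (SD, n = 3), with an edgeR adjusted p = 0.561. Tfam, which packages mitochondrial DNA and activates its promoters, stood at 19.4 ± 1.31 and 18.9 ± 1.42 CPM (SD, n = 3), with an edgeR adjusted p = 0.820. Ppargc1a, the inducible coactivator of mitochondrial growth, had 0 to 2 counts per library and was not tested.

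Of 21 genes that process, stabilise or degrade mitochondrial RNA 3 rose and 7 fell. With library size scaling 1 rose and 8 fell, where 13.4% and 21.0% of all genes did. The median log2 fold change of this list was -0.064, and -0.138 with replicate 1 alone for Cd226-/-. The 3 that rose were Slirp, Hsd17b10 and Rexo2 (log2 fold changes 0.516, 0.315 and 0.213). Their number is near the share of all genes, and only 1 rose without Cd226-/- replicate 2 or 3. Lrpprc, a protein that keeps mitochondrial messengers stable, went from 963, 921 and 1016 counts in WT to 637, 673 and 703 in Cd226-/-. It fell without overlap (log2 fold change -0.42 ± 0.08 (SE), adjusted p = 1.73e-04), in the opposite direction to the 5 members that rose. Fastkd2 and Ptcd3, RNA-binding proteins of mitochondria, had log2 fold changes of -0.56 and -0.48 (adjusted p = 1.96e-04 and 3.19e-04). Of 19 genes for mitochondrial DNA replication and upkeep 1 rose (Dna2, a nuclease and helicase, 1.49-fold) and 5 fell, among them the inner membrane protein gene Mpv17 (log2 fold change -0.50) and Atad3a (-0.31). The number that fell was 2 without WT replicate 1, WT replicate 3 or Cd226-/- replicate 3 and with DESeq2's Wald test, and 3 without any one of the other libraries.

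Translation inside mitochondria uses its own ribosomes. Of 76 mitochondrial ribosomal protein genes 4 rose, among them Mrpl52 (1.20-fold), and 4 fell, among them Mrpl42 (log2 fold change -0.27). Both shares were below those of all genes. With library size scaling 2 rose and 14 fell, also below the shares of all genes with that scaling (13.4% and 21.0%). The median log2 fold change of this list was -0.056, and -0.082 with replicate 1 alone for Cd226-/-. With 1 library left out 2 to 7 rose and 0 to 6 fell; none fell without Cd226-/- replicate 3, so that the call of Mrpl42 was lost, and 1 fell without WT replicate 3 or Cd226-/- replicate 2. Of 12 translation factors none rose and 2 fell, the elongation factors Gfm1 and Tufm (log2 fold changes -0.26 and -0.30), near the share of all genes, and neither passed without Cd226-/- replicate 3; 1 factor fell without WT replicate 1, WT replicate 3 or Cd226-/- replicate 1. Of 38 assembly factors of the respiratory complexes 4 rose and 6 fell (3 and 8 with library size scaling), the latter near the share of all genes, and 3 fell without WT replicate 1, WT replicate 3 or Cd226-/- replicate 3. The copper chaperone Cox17 (1.44-fold) and Pet100 (1.46-fold), both needed to build complex IV, rose, and Coa7 had a log2 fold change of -0.51. Of 11 genes for the removal of damaged mitochondria 2 rose and 2 fell, near the shares of all genes (1 and 3 with library size scaling), and 1 rose without WT replicate 1, WT replicate 2 or Cd226-/- replicate 3. The hypoxia-inducible receptor Bnip3 rose 2.37-fold, while the adaptor Sqstm1 and the kinase Pink1 had log2 fold changes of -0.43 and -0.39.

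Some genes outside the mitochondrial genome followed the summed members closely over the 6 libraries. Among 8956 genes averaging 5 CPM or more, the most alike by Pearson correlation of log2 CPM were Magee1 (0.996), Ep400 (0.994), Cysltr1 (0.994), Rps21 (0.993) and Rpl19 (0.993). A correlation of at least 0.95 was reached by 197 genes, and the points share the libraries, the scaling and the difference between genotypes, so these values only describe.

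**Figure D5:**
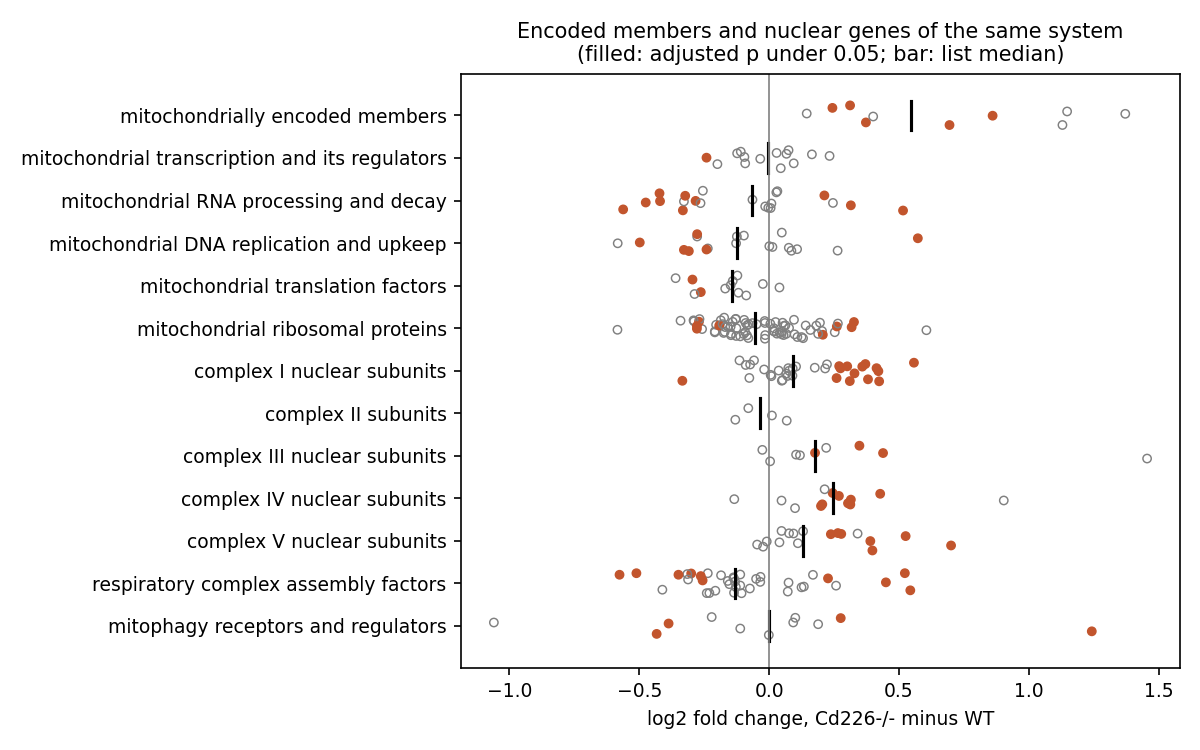
Log2 fold change (Cd226-/- minus WT) of the 10 mitochondrially encoded members and of the tested genes of 12 nuclear lists, 1 point a gene, filled where the adjusted p was under 0.05, with a bar at the median of each list. The members' median is 0.55, the medians of the nuclear subunits of complexes I, III, IV and V are 0.09, 0.18, 0.24 and 0.13, and those of the other lists lie between -0.14 and -0.00.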

How the data were processed

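RNA of M1-stimulated macrophages was extracted with Trizol and sequenced as standard Illumina libraries, 3 WT and 3 Cd226-/-, per the labels' protocols. The authors deposited raw read counts per gene for the 6 libraries. Per the submitters' processing notes HISAT2 and GRCm38 were used. The counting tool, its annotation, its strand setting and its treatment of reads that match several places were not given in the sources used here.

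The deposited counts (46095 rows, 22604 with a count, 16838527 to 21658061 counts per library, so that 1 count is 0.0452 to 0.0599 CPM) were fitted whole in edgeR 4.0.16 (R 4.3.3): filterByExpr by genotype left 13215 genes, libraries were TMM-scaled, and genotypes were compared by the quasi-likelihood test with Benjamini-Hochberg adjustment at 0.05. All adjusted p-values across genes in the text come from this test unless another tool is named. Alternatives used DESeq2 1.42.0, limma 3.58.1, other scalings and filters, and each library left out. Ratios between members were compared by two-sided exact permutation tests over the 6 libraries. Tested on simulated counts with the same 13215 genes and this comparison, edgeR recovered 34.4% of 1.25-fold and 80.0% of 1.5-fold changes. The simulation gave every gene the same variation beyond counting noise and set no library apart. These shares therefore do not describe single members, whose SE differed.

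Members were matched by symbol. Nuclear copies were searched by BLAST among the 141730 GENCODE transcripts outside the mitochondrial genome, alignments of at least 60 bases, in place of the genome that had been planned for; copies outside annotated transcripts were not analysed here. Printed sequences and coordinates are those of the GENCODE M21 annotation of GRCm38. Named genes were the members, the other mitochondrial rows, up to 3 called genes of each of 12 nuclear lists by p, plus Tfam, Polrmt and Ppargc1a, and the 5 genes most alike in pattern. Slirp, Hsd17b10 and Rexo2 were named in addition, as the genes of their list that rose. The members and lists were chosen with earlier results of these data known.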

Additional observations from a re-analysis of the deposited data

How the results depend on the processing

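ND1, ND2, ND4, CYTB and COX1 kept direction and call in all 15 alternative fits. The number of members that passed was 5, and 5 to 9 with 1 library left out (9 without Cd226-/- replicate 1), 7 with no filter, DESeq2's Wald test or limma-voom. With the replicate block 9 passed (all but ND6, with ND5 at an adjusted p of 0.0496). Over all genes tested, same-numbered libraries did not deviate together (r = 0.01, -0.01 and 0.01). This correlation weighs low-count and abundant genes alike, so it shows no pairing by number but cannot exclude it. The 12 nuclear lists held 73 called genes, 50 to 77 with 1 library left out and 43 with replicate 1 alone for Cd226-/-. These counts are to be read against all 13215 genes tested, of which 4086 (30.9%) passed. With 1 library left out 3263 to 4378 of all genes passed, and 3318 without Cd226-/- replicate 3, where the lists held 50. Fewer of all genes also passed with replicate 1 alone for Cd226-/-. The count for the lists together was not tested against the share of all genes. The summed log2 difference was 0.30, 0.26 to 0.33 with 1 library left out, and 0.42 without COX1, a choice made after seeing the data. ATP6 reversed with replicate 1 alone for Cd226-/- (-0.24). Against the geometric mean of the other 9 members, the ratios of ND4 (-0.29), ND6 (-0.20) and CYTB (-0.36) reversed. Against that of the members above 1000 counts, also chosen after seeing the data, those of ND4 (-0.078) and CYTB (-0.15) reversed. The ratio of ND6 ranged from -0.031 to 0.495 with 1 library left out and reversed without WT replicate 2. For each of these the cause was not tested. COX2, COX3, ATP6 and ND6 had 37 to 729 counts per library. The SE of COX2 was 0.43, and 0.10 without Cd226-/- replicate 1; that of COX3 was 0.49, and 0.14. ATP6 was not tested at a mean of at least 5 CPM.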
